A study of Mus musculus with 12 samples.

Results

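The SOCS and CIS genes encode the feedback inhibitors of cytokine receptor signaling, and their RNA was followed here in cultured mouse Tregs. The 8 genes of the family, Cish and Socs1 to Socs7, were taken by symbol from the 55228 symbols of the deposited table. All 8 were found, and all 8 were among the 15043 genes tested, whose mean over the 12 libraries was 1 TPM or more. TPM, transcripts counted relative to library total and transcript length, is the unit deposited.

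The Tregs were Foxp3.GFP+CD25+ cells of NOD.Foxp3-GFP mice, in which GFP marks cells that express the Treg factor Foxp3. Every culture was transduced with a retrovirus that carries the surface reporter Thy1.1, and the sort on day 9 kept Thy1.1+ cells, so all 4 groups share activation, transduction and sorting. EV Tregs received the empty vector. Those named EV no IL-2 were kept without cytokine after the wash, and those named EV+IL-2 stayed in mouse IL-2 at 100 IU/ml. Per the methods of the study, the EV-transduced culture was divided between these groups, and the wash removed IL-2. A gene said below to rise or fall with IL-2 was therefore higher or lower than in cultures from which IL-2 had been removed. Levels before the wash were not measured. Tregs named 3A10t or 1G12t received a vector in which the orthogonal IL-2 variant 3A10 or 1G12 is tethered to a mutated IL-2 receptor β chain, and they were cultured without IL-2. Transduction was on day 2, and cells were washed on day 4 and cultured for another 5 days. Each group had 3 libraries, from 3 cultures sorted on separate machines out of the pooled lymph node cells of 16 mice. The cultures therefore share their mice, and the p-values below measure only the spread between cultures of that pool.

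Each SOCS protein has an SH2 domain, which binds phosphorylated tyrosines, and a C-terminal SOCS box, which recruits elongins B and C and cullin 5 to form a ubiquitin ligase. When IL-2 engages its receptor, JAK1 and JAK3 phosphorylate STAT5, and STAT5 induces Cish, Socs1 and Socs2, whose products then dampen signaling by the same receptor. Tregs depend on IL-2 supplied by other cells, which makes these genes a common readout of IL-2 signaling in them. The comparisons ask how far the RNA of these inhibitors responded to soluble IL-2 and to each tethered construct, and whether 1G12t Tregs carried more of it than Tregs without IL-2.

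STAT5 binds the letters TTCNNNGAA, so the promoters were searched for them, and 3 promoters are shown because their genes were the most abundant members with a sequence in the RefSeq promoter table. That table, of build GRCm38.p6, held a window of 300 bases, 250 before and 50 from the transcription start, for 4 of the 8 genes, Cish, Socs1, Socs3 and Socs4. Capitals mark each TTCNNNGAA, which reads the same on both strands, and all sequences are written 5′ to 3′ on the gene's own strand. The Cish line gives the 30 bases from 5 before the start onwards (chr9:107296654-107296683, plus strand). The Socs1 and Socs3 lines give the 250 bases before the start (chr16:10785537-10785786 and chr11:117969367-117969616, both minus strand).
Cish: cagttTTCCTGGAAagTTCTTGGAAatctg
Socs1: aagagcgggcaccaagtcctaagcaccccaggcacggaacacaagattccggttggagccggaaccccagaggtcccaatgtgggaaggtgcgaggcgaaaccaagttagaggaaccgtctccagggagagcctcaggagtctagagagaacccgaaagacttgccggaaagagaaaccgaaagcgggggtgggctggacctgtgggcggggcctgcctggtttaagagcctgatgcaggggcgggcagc
Socs3: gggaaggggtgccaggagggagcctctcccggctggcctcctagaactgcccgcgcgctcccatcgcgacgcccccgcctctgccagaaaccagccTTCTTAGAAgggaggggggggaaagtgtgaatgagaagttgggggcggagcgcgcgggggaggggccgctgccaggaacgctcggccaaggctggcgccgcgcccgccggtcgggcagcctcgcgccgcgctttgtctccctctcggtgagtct
The Cish window held 2 matches, beginning at bases 1 and 12 counted from the start, and the Socs3 window held 1, beginning 154 bases before the start. No match was found in the Socs1 and Socs4 windows. Of the 32851 promoter windows in the table, 8.3% held at least 1 match and 0.457% held 2 or more. The Cish window lies inside an exon of 1 longer GENCODE transcript, so in that annotation its matches fall in transcribed sequence. Whether any of these letters was bound was not measured.

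In GENCODE M21 on GRCm38, Cish lies on chromosome 9 (107296026-107302784, plus strand, ENSMUSG00000032578), Socs1 on chromosome 16 (10782240-10785536, minus strand, ENSMUSG00000038037) and Socs2 on chromosome 10 (95385362-95417180, minus strand, ENSMUSG00000020027). Socs3 (117966079-117970047, minus strand, ENSMUSG00000053113) and Socs7 (97362551-97398542, plus strand, ENSMUSG00000038485) are both on chromosome 11. Socs4 is on chromosome 14 (47276931-47296102, plus strand, ENSMUSG00000048379), Socs5 on chromosome 17 (87107679-87137839, plus strand, ENSMUSG00000037104) and Socs6 on chromosome 18 (88665224-88927481, minus strand, ENSMUSG00000056153). Their longest coding transcripts fall into a shorter set, from 2222 bases for Socs2 to 2908 for Socs1, and a longer set, from 4648 bases for Socs5 to 7015 for Socs7. Cish is overlapped on the opposite strand by Gm17041 and Gm17040. The library kits do not record strand, so reads of Cish and of these genes cannot be told apart, although both were low, at a mean TPM of 1.13 and 0.46.

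Treg and general T cell genes were expressed in all 12 libraries. Foxp3 was lowest in 3A10t, at 463, 369 and 391 scaled TPM, against 484 to 510 in the other groups. Its log2 fold change in 3A10t was −0.31 against EV+IL-2 (limma adjusted p = 0.0192). Against EV no IL-2 it was −0.28, which did not pass (0.0822). The summed scaled TPM of Foxp3, Il2ra, Ikzf2, Cd4 and Cd3e was between 1446 and 2067, whereas the sums for B cell (Cd79a, Cd79b, Ms4a1), myeloid (Lyz2, Csf1r, S100a8, S100a9) and CD8 T cell (Cd8a, Cd8b1) markers did not exceed 16.0, 3.04 and 6.51. Erythroid markers (Hba-a1, Hbb-bs, Alas2) summed to between 14.5 and 24.0 in EV+IL-2 and to at most 3.29 in the other groups. In EV+IL-2 nearly all of the sum was Hba-a1, at 23.8, 16.7 and 14.2. Hbb-bs and Alas2 did not exceed 0.34 and 0.22 there, so the markers of this list did not move together. Their part in the results was not tested. Il2, which the tethered constructs carry in altered form, was between 12.9 and 29.7 in 1G12t and 3A10t libraries and at most 0.492 in EV libraries. Between replicates, 3A10t libraries varied most, with a median SD of 0.224 on the log2 scale against 0.109 to 0.154 in the other groups. The 10 most abundant genes took 10.8% to 13.5% of TPM in 3A10t libraries and 8.85% to 9.92% in the others, and the scale factor of 3A10t replicate 2, at 0.854, was the lowest. EV+IL-2 libraries listed 30393 to 36239 genes above 0 and the others 37930 to 43285, and the part of these differences in the results was not tested beyond the alternative scalings. TPM keep no depth, so that spread is the only error given. In bulk RNA, fewer expressing cells and less RNA per cell cannot be told apart.

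Family members were expressed at very different levels. TPM are per transcript length, so levels can be set side by side between genes, and the values below are TPM divided by a median-of-ratios factor per library (scaled TPM). Averaged over the 12 libraries, Socs2 ranked 143 of the 15043 genes tested, Cish 512, Socs1 658 and Socs3 1785. The other members, Socs6 (rank 7648), Socs5 (8861), Socs4 (9506) and Socs7 (12069), were below 17 scaled TPM in all libraries. Socs2 alone made up between 50.2% and 57.5% of the summed TPM of the family in each group mean. The sum of all 8 was 2178 ± 72.6 in EV+IL-2, 1424 ± 68.7 in 3A10t, 1152 ± 66.7 in EV no IL-2 and 1104 ± 68.8 in 1G12t (SD, n = 3).

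**Figure D1:**
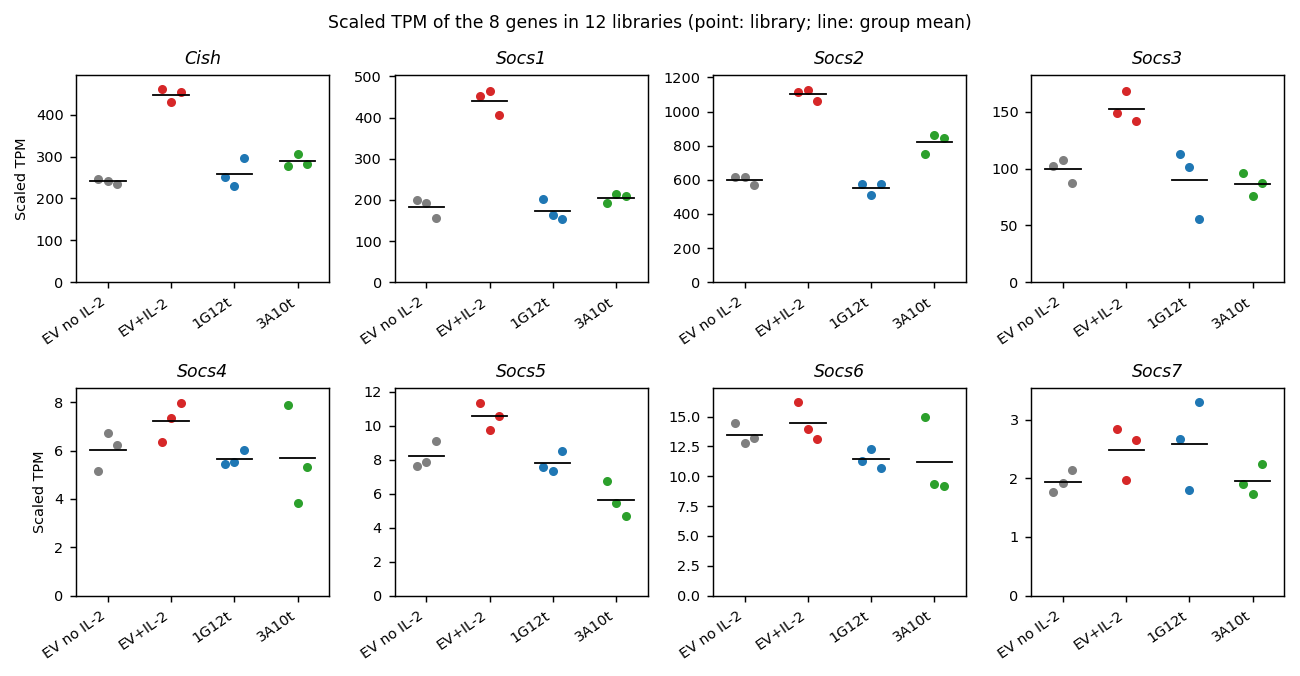
Scaled TPM (linear axes from 0, 1 panel per gene) of the 8 genes in the 4 groups, with a point per library and a line at the mean of 3. Socs2, Cish and Socs1 were highest in all 3 EV+IL-2 libraries, and the 3 3A10t libraries of Socs2, between 749 and 860.04, lay between those of EV no IL-2 and EV+IL-2.

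Cultures kept in soluble IL-2 carried more RNA of 3 inhibitors of the IL-2 pathway than cultures from which it had been removed. Cish was 1.86-fold, Socs1 2.43-fold and Socs2 1.83-fold as high in EV+IL-2 as in EV no IL-2, and they were the 3 of 8 members called higher. No member was called lower. Over all genes tested, 8.17% were called higher and 5.13% lower (limma, adjusted p under 0.05). All 8 members had a positive log2 fold change. In 5 of 8 all 3 EV+IL-2 libraries were above all 3 EV no IL-2 libraries, as they were in 19.6% of all genes. The median log2 fold change of the 8 members was 0.47, that of all genes −0.01.

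Cish encodes CIS, which binds activated cytokine receptors and blocks STAT5 docking. Its scaled TPM was 247, 241 and 234 in the EV no IL-2 libraries and 461, 429.9 and 454 in the EV+IL-2 libraries. Both groups were tight and far apart, with means of 241 ± 6.26 and 448 ± 16.2, a log2 fold change of 0.89 (SE 0.0915, limma adjusted p = 9.3e-05).

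Socs1 encodes an inhibitor that acts on the JAK kinases themselves through its kinase inhibitory region. Without IL-2 its libraries read 199, 192 and 155, and with IL-2 they read 453, 465 and 406. Its log2 fold change of 1.28 (SE 0.123, limma adjusted p = 6.02e-05) was the largest of the family, from 182 ± 23.6 to 441 ± 31.4.

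Socs2 encodes a regulator best known for restraining growth hormone receptor signaling. It was the most abundant member in every library, at 619, 616 and 568 without IL-2 and at 1116, 1128 and 1059 with it. The log2 fold change was 0.87 (SE 0.0767, limma adjusted p = 3.28e-05), close to that of Cish.

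Socs3, whose product inhibits JAKs at gp130 and related receptors, was 103, 108 and 87.6 without IL-2 and 149, 168.5 and 142 with it. The groups did not overlap, but the log2 fold change of 0.62 (SE 0.219) did not pass (limma adjusted p = 0.0926), and its interval ran from 0.14 to 1.10. It did pass in 2 of 17 alternatives, a fit of only these 6 libraries (limma adjusted p = 0.00636) and a correction for transcript length with the replicate block (0.0407). Socs5 was 7.65, 7.83 and 9.12 without IL-2 and 11.31, 9.77 and 10.58 with it, again without overlap, at a log2 fold change of 0.33 (SE 0.122, limma adjusted p = 0.107). With that correction alone, which was chosen after the data were seen, the limma adjusted p was 0.0322 for Socs5 and 0.0591 for Socs3. Socs4, Socs6 and Socs7 overlapped between the groups, with log2 fold changes of 0.23, 0.09 and 0.24.

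**Figure D2:**
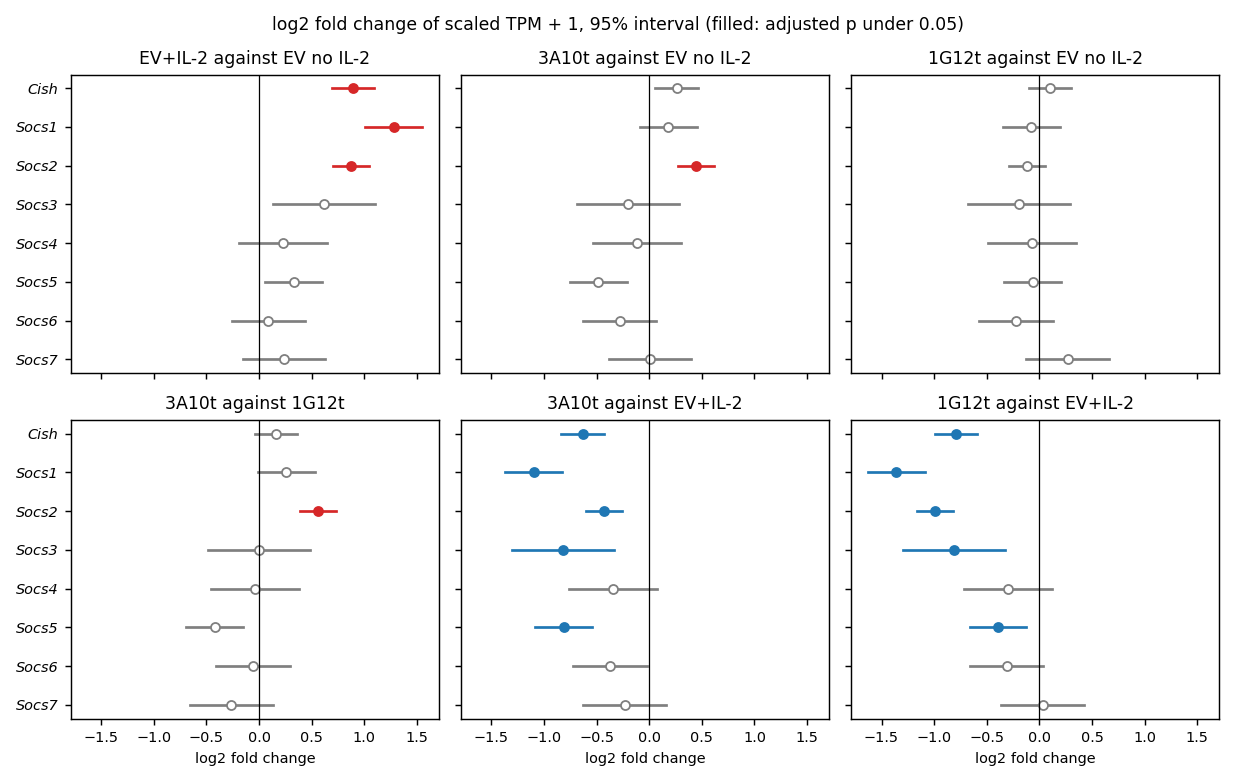
Log2 fold change of scaled TPM + 1 with its 95% interval (horizontal axis) for the 8 genes in each of the 6 comparisons, filled where the limma adjusted p was under 0.05. Cish, Socs1 and Socs2 passed in every comparison with EV+IL-2, and Socs2 alone passed in 3A10t against EV no IL-2 and against 1G12t.

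3A10t Tregs, cultured without IL-2, carried more Socs2 than EV no IL-2 Tregs. The 3A10t libraries read 749, 860.04 and 848, all above the highest EV no IL-2 library at 619, and the means were 819 ± 60.9 and 601 ± 28.5. This is a log2 fold change of 0.44 (SE 0.0767, limma adjusted p = 0.0271), and Socs2 was the only 1 of 8 members called. Across all genes 0.452% were called higher and 1.6% lower. The median log2 fold change of the family was −0.05, that of all genes 0.03.

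The 3A10t libraries also stood apart in the share of their most abundant genes, as given above, and with TPM as deposited the log2 fold change of Socs2 was 0.30 (limma adjusted p = 0.0343). The call for Socs2 was not stable to the choice of libraries. It was kept in 10 of 17 alternatives, whose limma adjusted p ranged from 0.00135 to 0.226. It was lost without any 1 of the EV no IL-2 libraries (adjusted p = 0.0527, 0.105 and 0.121 without replicates 1, 2 and 3) and without 3A10t replicate 2 (0.0632) or 3 (0.0934). Quantile normalization (0.0611) and a fit of only the 6 libraries compared (0.226) also lost it, while the log2 fold change was positive in all 17, between 0.25 and 0.51.

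Cish was 278, 306 and 282 in 3A10t, above all 3 EV no IL-2 libraries, with a mean of 289 ± 15.0. Its log2 fold change of 0.26 (SE 0.0915, interval 0.06 to 0.46) did not pass (limma adjusted p = 0.121), nor did it in any of 17 alternatives. Socs1 was 192, 215 and 209 and overlapped EV no IL-2, with a log2 fold change of 0.18 (interval −0.09 to 0.45, limma adjusted p = 0.352). So 2 of 8 members had all 3 3A10t libraries above those of EV no IL-2, against 13.3% of all genes, and 1 of 8 had all 3 below, against 12.1%.

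That last member was Socs5, whose product has been studied in EGF receptor and IL-4 receptor signaling. Its 3A10t libraries read 6.73, 5.43 and 4.68, below the lowest EV no IL-2 library at 7.65. The log2 fold change of −0.48 (SE 0.122) did not pass, at a limma adjusted p of 0.0673, and leaving out 3A10t replicate 1 gave 0.00452. Among the less abundant members 3A10t replicate 1 stood apart. Socs4 was 7.89, 3.84 and 5.30 and Socs6 14.94, 9.37 and 9.20 in 3A10t replicates 1 to 3, so that the first value was the highest of the group in both. Socs3 was 96.0, 76.2 and 87.1 and Socs7 1.91, 1.73 and 2.24, and both overlapped EV no IL-2.

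Transcript length moved with the 3A10t comparison. Among the 14857 genes tested that have a transcript length in GENCODE M21, the median log2 fold change of 3A10t against EV no IL-2 was 0.17 for genes of up to 2000 bases, −0.07 for those of 2001 to 4000 and −0.13 for longer ones. In the longest class 5.01% of genes were called lower and 0.162% higher. For EV+IL-2 against EV no IL-2 the 3 medians were 0.00, −0.03 and −0.03. Removing the trend on length, an alternative chosen after the data were seen, left Socs2 at 0.43 with a limma adjusted p of 0.0273 (0.0451 with the replicate block) and moved Socs5 from −0.48 to −0.29, with an adjusted p of 0.133. It turned Socs4 from −0.11 to 7e-04 and moved Cish from 0.26 to 0.35, with a limma adjusted p of 0.115.

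**Figure D3:**
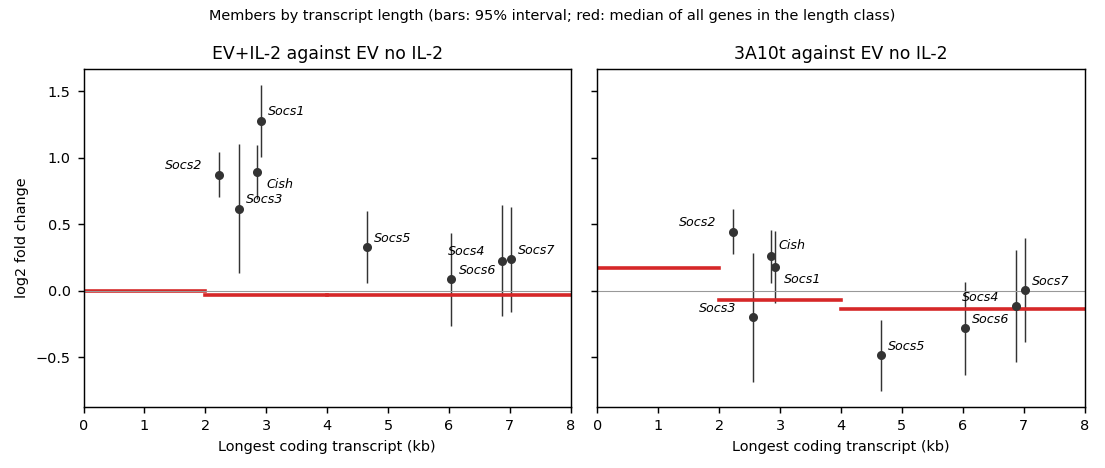
Log2 fold change with its 95% interval (vertical axis) against the length of the longest coding transcript in kilobases (horizontal axis) for the 8 genes, in EV+IL-2 (left) and 3A10t (right) against EV no IL-2, with the median of all genes in each length class in red. The medians were nearly level on the left and ran from 0.17 to −0.13 on the right, where Socs2 was above and Socs5 below the median of its class.

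1G12t Tregs did not differ detectably from EV no IL-2 Tregs in any member. None of 8 passed by limma, and none had an unadjusted p under 0.05. Of all genes tested 0.0133% were called higher and 0.00665% lower. Cish was 252, 229 and 297 in 1G12t, overlapping EV no IL-2, with a log2 fold change of 0.10 (interval −0.10 to 0.30). Socs1 was 201, 163 and 153, with a log2 fold change of −0.08 (interval −0.35 to 0.19). Socs2 was 576, 512 and 574, with a log2 fold change of −0.12 (interval −0.29 to 0.05). For these genes the upper ends of the intervals were below the log2 fold changes of EV+IL-2, which were 0.89, 1.28 and 0.87.

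Socs3 had its widest spread in 1G12t, at 113, 101 and 55.9. The log2 fold change of −0.20 against EV no IL-2 became 0.11 without replicate 3. Socs6 was 11.27, 12.26 and 10.72, all below the lowest EV no IL-2 library at 12.78, the only 1 of 8 members without overlap, compared with 7.8% of all genes below in this way. Its log2 fold change was −0.22 (limma adjusted p = 0.763). Socs4 was 5.45, 5.53 and 6.01, Socs5 was 7.56, 7.35 and 8.49 and Socs7 was 2.68, 1.81 and 3.30, each overlapping EV no IL-2.

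Compared directly, the tethered constructs differed in Socs2. All 3 3A10t libraries (749 to 860.04) were above all 3 1G12t libraries (512 to 576), with a log2 fold change of 0.56 (SE 0.0767, limma adjusted p = 0.0102). The call was kept in 16 of 17 alternatives and lost only in a fit of these 6 libraries alone (0.282). Its size depended on scaling. The log2 fold change was 0.37 with TPM as deposited (limma adjusted p = 0.0144) and 0.275 with quantile normalization (0.0406). Socs2 was 1 of 8 members called, where 1.3% of all genes were called higher and 2.96% lower. Socs2 was also the 1 of 8 members with all 3A10t libraries above, against 13.7% of all genes, and Socs5 the 1 of 8 with all below, against 12.5%. Socs5 had a log2 fold change of −0.42 (SE 0.122, limma adjusted p = 0.0642), which was −0.21 after the correction for length. Cish (0.16, interval −0.04 to 0.36) and Socs1 (0.26, interval −0.01 to 0.53) did not pass, and the sign for Cish turned with TPM as deposited (−0.03) and quantile normalization (−0.04).

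Both constructs left Cish, Socs1 and Socs2 below their levels in soluble IL-2. Against EV+IL-2, 5 of 8 members were called lower in 3A10t, namely Cish, Socs1, Socs2, Socs3 and Socs5, and none was called higher. The background was 13% of all genes lower and 10.3% higher. Socs1 showed the largest difference, with a log2 fold change of −1.10 (SE 0.123, limma adjusted p = 0.000189), followed by Socs3 at −0.82 (SE 0.219, 0.022), Socs5 at −0.81 (SE 0.122, 0.00117), Cish at −0.63 (SE 0.0915, 0.000936) and Socs2 at −0.43 (SE 0.0767, 0.00317). The call for Socs3 was kept in 13 of 17 alternatives and the others in all 17. These 5 of 8 members had all 3A10t libraries below all EV+IL-2 libraries, compared with 18% of all genes.

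In 1G12t, the same 5 of 8 members were called lower than in EV+IL-2, and none higher, where 10.9% of all genes were lower and 9.69% higher. Log2 fold changes were −0.79 for Cish, −1.36 for Socs1 and −0.99 for Socs2, each called in all 17 alternatives. Socs3 was −0.81 (SE 0.219, limma adjusted p = 0.0237) and was called in 14 of 17. Socs5 was −0.39 (SE 0.122, limma adjusted p = 0.0436) and lost its call with the replicate block, which pairs the cultures of a shared sort (0.0543). It was called in 7 of 17 alternatives, and without EV+IL-2 replicate 1 or 2 only 3 members were called. In 7 of 8 members, all except Socs7, all 1G12t libraries were below all EV+IL-2 libraries, compared with 22% of all genes. These 2 comparisons share the EV+IL-2 libraries and are not independent of each other.

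Placed on the span from the mean of EV no IL-2 (0%) to that of EV+IL-2 (100%), the 3 responsive inhibitors lay at different points in 3A10t. Socs2 lay at 43.6% ± 12.2, Cish at 23.1% ± 7.22 and Socs1 at 9.07% ± 4.57 (SD, n = 3 libraries). Each SD of a share holds only the spread between libraries of the construct. The means of the EV groups were taken as fixed, so their error is left out. The lowest Socs2 library, at 29.6%, was below the highest Cish library, at 31.3%, and above the highest Socs1 library, at 12.7%. In 1G12t, Cish lay at 9.12% ± 16.7, Socs1 at −3.65% ± 9.87 and Socs2 at −9.30% ± 7.26. These shares are descriptions with no test, and in 3A10t they depended on scaling. With TPM as deposited they were 30.3% for Socs2, 10.3% for Cish and 1.53% for Socs1, in the same order.

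**Figure D4:**
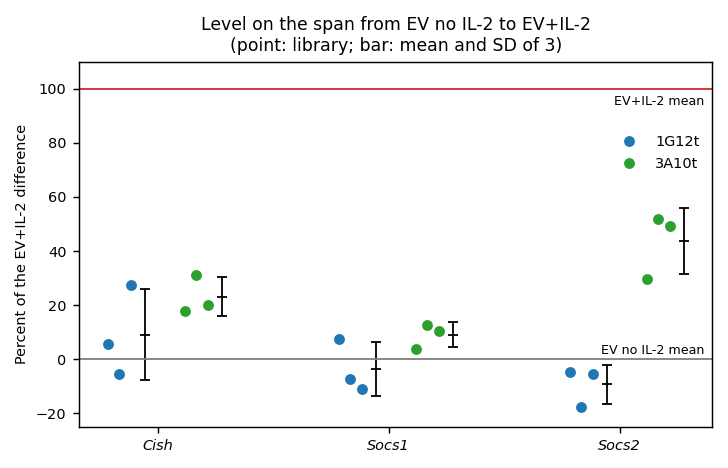
Position of each 1G12t and 3A10t library between the means of EV no IL-2 (0%) and EV+IL-2 (100%) for Cish, Socs1 and Socs2, in percent, with the mean and SD of 3 beside the points. The 3A10t libraries of Socs2 (29.6% to 51.8%) had the highest mean, although the lowest of them was below the highest 3A10t library of Cish (31.3%). No library of either construct reached 100%.

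Ratios between members within a library do not depend on how libraries are scaled, and they were computed on deposited TPM + 1. Neither these ratios nor the shares above were corrected for transcript length. That correction brought the log2 fold changes of Cish and Socs2 in 3A10t against EV no IL-2 closer together. They were 0.35 and 0.43 with it, and 0.26 and 0.44 without it. The log2 ratio of Socs2 to Socs1 was 1.63, 1.68 and 1.87 without IL-2, 1.298, 1.278 and 1.383 with it and 1.96, 2.00 and 2.01 in 3A10t. No library of these groups overlapped another group. EV+IL-2 was thus lower than EV no IL-2 by a difference of −0.41 and 3A10t was higher by 0.26, each with an exact permutation p of 0.1 (two-sided), the smallest that 3 against 3 libraries allow. Between 3A10t and EV+IL-2 the difference was 0.67, with the same exact p of 0.1.

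The log2 ratio of Socs2 to Cish was alike with and without IL-2, at 1.295 ± 0.0862 and 1.316 ± 0.0393 (difference −0.02, exact permutation p = 0.8). In 3A10t it was 1.428, 1.489 and 1.583, above every EV library, with differences of 0.18 from EV no IL-2 and 0.20 from EV+IL-2 (exact permutation p = 0.1 for each). In 1G12t it was 1.19, 1.157 and 0.947, below every EV library, and its mean of 1.098 ± 0.132 lay farther from EV no IL-2 than that of 3A10t did, on the other side. The log2 ratio of Cish to Socs1 was 0.41 ± 0.159 without IL-2, 0.02 ± 0.137 with it and 0.49 ± 0.0525 in 3A10t. EV+IL-2 differed from both other groups (differences of −0.39 from EV no IL-2 and, for 3A10t minus EV+IL-2, 0.46) with no overlap, while 3A10t and EV no IL-2 overlapped (exact permutation p = 0.4). In 1G12t the ratio of Cish to Socs1 was 0.59 ± 0.327 and that of Socs2 to Socs1 1.69 ± 0.198, both overlapping EV no IL-2, and the 1G12t ratios are given as a description with no test. Of the 9 tests of the other groups none could go below 0.1, so none could pass a threshold of 0.05.

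**Figure D5:**
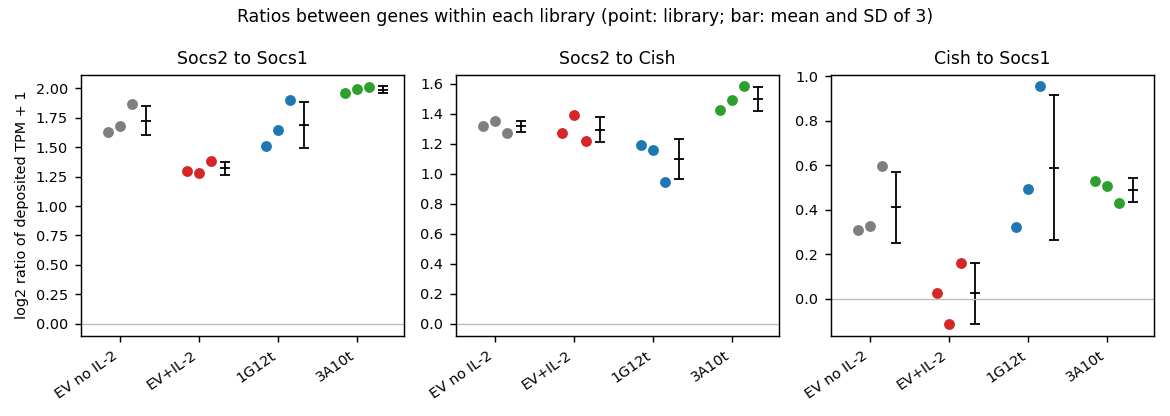
Log2 ratio of deposited TPM + 1 between pairs of members in each library (point), with the mean and SD of 3 per group, for Socs2 to Socs1, Socs2 to Cish and Cish to Socs1. Socs2 to Socs1 was lowest in EV+IL-2 and highest in 3A10t, Cish to Socs1 was lowest in EV+IL-2, and Socs2 to Cish was above every EV library in 3A10t (from 1.428) and below every EV library in 1G12t (to 1.19).

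Other genes with profiles close to those of the responsive members were found by the root mean square difference of centred log2 values over the 12 libraries, among the 8315 genes averaging 10 TPM or more. For Cish these were Pglyrp2 (0.078), Ppm1j (0.087) and Ccnd3 (0.102), a cyclin of the G1 phase, where the median gene was at 0.405. For Socs1 they were Cndp2 (0.097), Lig1 (0.097), a DNA ligase, and Ada (0.104), adenosine deaminase, with a median of 0.583. For Socs2 they were Rexo2 (0.097), Trat1 (0.1001) and Sac3d1 (0.1001), with a median of 0.438. Among the members themselves, Cish and Socs2 were closest of the responsive 3, at 0.160, and Socs1 was 0.267 from Cish and 0.258 from Socs2. These values are descriptions over libraries that share their cultures.

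The receptor and kinases upstream of the family did not move together. As a background for the counts that follow, 8.17% of all genes were called higher and 5.13% lower in EV+IL-2 against EV no IL-2, and 0.452% and 1.6% in 3A10t. With soluble IL-2, 2 of 3 IL-2 receptor chains rose, namely Il2ra (log2 fold change 0.76, limma adjusted p = 0.00123) and Il2rb (0.77, 0.000309). Of 4 JAK kinases, Jak1 fell (−0.57, 0.0149). Among the STAT factors both STAT5 genes fell, Stat5a by 0.65 and Stat5b by 0.73 on the log2 scale (limma adjusted p = 0.00789 and 0.000861). Stat5a went from 53.2 to 33.7 scaled TPM and Stat5b from 127 to 76.1, opposite to Cish, Socs1 and Socs2. In 3A10t against EV no IL-2, Il2rb was higher (0.48, limma adjusted p = 0.0373) and Stat2 lower (−0.65, 0.038). In 1G12t, Il2rb had a log2 fold change of 0.56 with all 3 libraries above EV no IL-2 (unadjusted p = 9.9e-05, limma adjusted p = 0.298). The constructs carry a form of the receptor β chain, so reads of Il2rb and of the construct cannot be told apart in 1G12t and 3A10t.

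Of the 6 ligase partners that SOCS box proteins recruit (Elob, Eloc, Cul5, Rnf7, Cul2, Rbx1), none passed in EV+IL-2 or 3A10t against EV no IL-2, with 1 at an unadjusted p under 0.05 in each. At that p were 26.3% of all genes with IL-2 (13.9% higher, 12.4% lower) and 26% in 3A10t (10.9% higher, 15.1% lower). Of 13 other negative regulators, phosphatases, PIAS proteins, Sh2b3, Usp18, Cbl and Cblb, EV+IL-2 raised 1, the phosphatase gene Ptpn1 (log2 fold change 0.65, limma adjusted p = 0.00564). In 3A10t the only 1 called was Ptprc, which encodes CD45 (−0.59, 0.0423). Of 26 other genes with a SOCS box listed (the Spsb, Wsb, Rab40 and Asb genes), 13 were tested, and Spsb1 was the 1 called with IL-2, lower (−0.61, 0.0187). In 3A10t none of the 13 was called against EV no IL-2, with 6 at an unadjusted p under 0.05 (Spsb1, Wsb1, Asb6, Asb7, Asb8 and Asb13), all lower, and a list median of −0.24 beside 0.03 for all genes. Of 13 receptors for other cytokines, 2 rose (Il10ra and Ifngr1) and 1 fell with IL-2, Il7r (−1.41, 0.000195), which is near the share of all genes called. None of these receptors was called in 3A10t against EV no IL-2, with 1 higher and 5 lower at an unadjusted p under 0.05. At that p were also 2 of the 13 regulators higher and 4 lower, and 2 of the 4 JAK kinases lower.

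Among 20 other genes known to follow IL-2 or STAT5, Il2ra included, 11 rose and 1 fell in EV+IL-2, and 1 rose in 3A10t. Their median log2 fold changes were 0.59 and 0.37, beside −0.01 and 0.03 for all genes. In 3A10t against EV no IL-2, 9 of the 20 were higher at an unadjusted limma p under 0.05. The 1 lower at that p was Foxp3 (−0.28). Of all genes, 10.9% were higher and 15.1% lower in this way. Lta, encoding lymphotoxin α, rose with IL-2 (1.86, limma adjusted p = 6.69e-06), and Ccnd2, encoding cyclin D2, was the 1 that rose in 3A10t (0.85, 0.0387). In 1G12t against EV no IL-2 none of the 3 receptor chains, 4 JAK kinases, 6 ligase partners, 13 regulators, 13 SOCS box genes, 13 receptors and 20 IL-2 genes passed by limma. At an unadjusted p under 0.05 there was 1 of the receptor chains, 1 of the other receptors and 1 of the IL-2 genes, all higher, beside 5.32% of all genes higher and 1.72% lower.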

How the data were processed

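RNA-seq was analysed in 12 libraries, grouped by the sample labels. Per the labels and the methods of the study, the authors amplified full-length cDNA, fragmented it with a transposase, trimmed reads with cutadapt 1.18, aligned them to mm10 (GRCm38) with STAR 2.5.3 and estimated expression with RSEM 1.3.0 and a GENCODE annotation. The deposited values are TPM, already divided by transcript length and library total. Depth is unknown, and the counts the authors tested with DESeq2 1.26 were not used here. All 12 TPM columns were used.

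TPM were divided by median-of-ratios factors (0.854 to 1.09 between libraries), and the 15043 genes averaging 1 TPM or more were tested with limma 3.58.1 (lmFit, eBayes with a trend) in R 4.3.3 on log2(scaled TPM + 1), a scale that understates changes of low genes. All 12 libraries entered 1 fit, without a replicate block, and p-values were Benjamini-Hochberg adjusted over all genes, with a threshold of 0.05. This fit and the permutation tests took the EV groups as independent, although both came from the EV-transduced culture. Ratios were tested by exact permutation. All 8 members were to be named with their values, the pathway lists as counts, and for 3 members the 3 genes most alike. The members and lists were chosen with earlier results of these data known. Code was tested on simulated data. A result of the STAT list is not reported here.

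Replicate numbers mark a shared sort in the labels. Deviations from group means correlated by 0.0409 on average over 18 pairs of libraries with the same number (−0.105 to 0.155, 3 over 0.1) and by −0.0205 over the 36 other pairs.

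Other settings tried were the replicate block, each library left out, a fit to the 6 libraries of a comparison alone, unscaled TPM (as deposited), quantile normalization, eBayes without the trend, pseudocounts of 0.1 and 5, a floor of 5 TPM on the mean, and no floor. A lowess correction for transcript length (span 0.3), alone and with the block, was added after the data were seen. Of the symbols, 53569 were found in GENCODE M21. Python 3.11.15 and matplotlib 3.10.9 drew the figures.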

Additional observations from a re-analysis of the deposited data

How the results depend on the processing

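Of the 810 refits of single members, 741 kept direction and side of the threshold, 25 lost a call, 11 gained one and 33 changed sign. Cish, Socs1 and Socs2 were called in all 3 comparisons with EV+IL-2 under all 17 alternatives. With the replicate block the members called were 5 and 4 for 3A10t and 1G12t against EV+IL-2, 1 for 3A10t against 1G12t, and 3 and 1 for EV+IL-2 and 3A10t against EV no IL-2, and apart from Socs5 in 1G12t against EV+IL-2 it changed no call of a member. In 3A10t against EV no IL-2 the count of 1 was 2 with TPM as deposited, 0 with quantile normalization, 0 with only the 6 libraries and 0 to 3 with a library left out, 3 without 3A10t replicate 1. In 3A10t against 1G12t it was 2 with TPM as deposited, 0 with only the 6 libraries and 1 to 2 with a library left out. In 1G12t against EV+IL-2 it was 3 to 4 with a library left out. For these counts the cause was not tested.

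TPM as deposited moved the median of all genes from 0.03 to −0.09 in 3A10t against EV no IL-2, from −0.02 to −0.18 in 3A10t against 1G12t and from 0.02 to 0.11 in 1G12t against EV+IL-2. Shares of the EV+IL-2 difference in 3A10t became 10.3% for Cish, 1.53% for Socs1 and 30.3% for Socs2 with TPM as deposited, and 14.3%, 4.46% and 28.5% with quantile normalization, which gave −2.02% for Socs2 in 1G12t. Socs1 in 3A10t ran from 4.10% to 11.98% with a library left out. The ratio of Socs2 to Cish in EV+IL-2 against EV no IL-2 ran from −0.068 to 0.0163.

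All changes of sign were in results without a call. Against EV no IL-2, Socs7 in 3A10t was −0.0905 with TPM as deposited, −0.14 with quantile normalization, −0.0043 with only 6 libraries and −0.0615 to 0.0589 with a library left out. Socs4 in 3A10t was 7e-04 with the length correction, with and without the block, and −0.34 to 0.0915 with a library left out. In 1G12t, leaving out a library gave −0.19 to 0.0036 for Socs1, −0.39 to 0.11 for Socs3 and −0.12 to 0.0041 for Socs5. In 3A10t against 1G12t, Cish was −0.0331 with unscaled TPM and −0.0364 with quantile normalization, which gave 0.0441 for Socs4 and 0.0927 for Socs6. Socs3 was 0.0081 with only 6 libraries. The length correction gave 0.0249, 0.18 and 0.16 for Socs3, Socs4 and Socs6, and leaving out a library gave −0.31 to 0.19, −0.27 to 0.16 and −0.27 to 0.0487. In 1G12t against EV+IL-2, Socs7 was −0.14 with quantile normalization, −0.0914 with the length correction and −0.11 to 0.20 with a library left out. Socs7 was not tested at a mean TPM of at least 5.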

Other observations

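The nearest tested genes on either side of all 8 members in GENCODE M21 were also examined in the same fit. Of these 16 neighbours, 7 were called higher with IL-2 by limma and the other 9 were not called. Over all genes, 8.17% were called higher and 5.13% lower. Socs2 faces the noncoding RNA gene 5730420D15Rik, which starts 195 bases from it on the opposite strand. 5730420D15Rik rose in EV+IL-2 against EV no IL-2, from 1.94 to 5.21 scaled TPM (log2 fold change 1.08, limma adjusted p = 0.00109), and was at 2.38 in 3A10t (0.19, 0.450) and 1.72 in 1G12t (−0.11, 0.871). Cradd, on the other side of Socs2 at 61229 bases, also rose with IL-2 (0.47, 0.00936). Tnp2, known as a gene of maturing sperm, lies 2400 bases upstream of Socs1. It went from 2.12 to 8.86 scaled TPM with IL-2 (1.65, limma adjusted p = 0.000646) and was 2.60 in 3A10t (0.20, 0.570) and 2.40 in 1G12t (0.07, 0.952). Clec16a, on the other side of Socs1, did not pass (0.21, limma adjusted p = 0.599). Hemk1, the nearest tested gene after Cish at 24300 bases, rose with IL-2 (1.19, limma adjusted p = 5.26e-05), as did Mapkapk3 before it (0.44, 0.0274).

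The neighbours that remain are the tested genes nearest to Socs3 to Socs7, and some of them lie far away. Mcfd2 is 116604 bases from Socs5, Timm21 3713700 bases from Socs6 and Epop 228847 bases from Socs7. Wdhd1, which starts 74 bases from Socs4 on the opposite strand, rose with IL-2 (0.65, limma adjusted p = 0.0354), whereas Socs4 itself did not pass (0.23, 0.527). Of the tested genes nearest to Socs3, Pgs1 (0.22, limma adjusted p = 0.0683) and Gm11725 (−0.22, 0.505) did not pass, nor did Mcfd2 (−0.0054, 0.999) or Gm5499 (−0.0585, 0.893) beside Socs5, Mapk1ip1l beside Socs4 (0.0535, 0.845), or Timm21 (0.0013, 1) and Rttn (−0.49, 0.104) beside Socs6. Beside Socs7, Epop rose (0.56, limma adjusted p = 0.00751) and Mrpl45 did not pass (0.27, 0.251). Gm17041, antisense to Cish, was at 2.14 scaled TPM in EV+IL-2, 1.28 in EV no IL-2, 0.568 in 3A10t and 0.491 in 1G12t. What these genes share with the members was not tested.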
